A study of Mus musculus with 2 samples.

Results

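Cells turn glucose into pyruvate and lactate through glycolysis, and many of the enzymes of this route are encoded by genes that the hypoxia inducible factors (HIF) switch on. When oxygen is ample, prolyl hydroxylases mark the HIF alpha subunit for destruction through the VHL protein, and when oxygen falls the subunit is kept, pairs with ARNT and binds short DNA elements near its target genes. The other targets of the same factors include genes for blood vessel growth, collagen modification, mitochondrial turnover and feedback on oxygen sensing. In melanoma cells, glycolytic enzymes are expressed at high levels also where oxygen is not limiting. The genes described here are 38 named genes of 32285 in the count matrix, taken as a fixed list: 18 for glucose uptake, glycolysis and lactate production or export (the glycolysis members), and 20 other hypoxia targets (the hypoxia members). All 38 were found by symbol. The list was not chosen by a threshold on these data, but earlier results of these data were known when it was drawn up.

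RNA was counted in single cells of B16 F10, an established mouse melanoma line that makes melanin and that the labels call melanocytes. Both groups share the line, the plating at 100 cells/cm2 and the growth for 7 days in high-glucose DMEM with 10% serum at 5% CO2. By the labels they differ in the sort: cells of low and of high side scatter, the study's measure of pigment, were collected. They were made into 1 library each, called low pigment and high pigment. The sort therefore cannot be told apart from differences in handling or library preparation. No difference below has a replicate check, no test between the libraries was made, and all intervals cover counting error only. No oxygen treatment or measurement is named in the labels.

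Molecules were counted by unique molecular identifiers (UMIs). The 1900 low pigment cells gave 32437194 UMIs in all, at a median of 16019.5 each, and the 2136 high pigment cells gave 28848691, at a median of 12557. Levels are given as UMIs per 1000000 UMIs of a library (CPM), which are shares of a library's RNA and not amounts per cell. Since the method counts each molecule once at its 3′ end, CPM values of different genes compare molecules, without a correction for transcript length. Of the melanocyte lineage markers Mitf, Sox10, Pax3, Dct, Tyrp1, Tyr, Mlana and Pmel, all 8 had a mean of at least 10 CPM, and summed to 11549 CPM in the low and 15002 CPM in the high pigment library. Summed markers of fibroblasts, leukocytes, keratinocytes and erythroid cells stayed at or below 4.47 CPM in each library. The 5 endothelial markers summed to 22.6 and 2.98 CPM, nearly all of it from Pecam1. No barcode sequence was shared by the libraries.

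Short stretches ahead of the transcription starts of 6 members are shown because the core letters of the HIF binding element lie in them. Windows of 300 bases, 250 before to 50 after each start, were taken from RefSeq on build GRCm38.p6 and searched for ACGTG and GCGTG on both strands, with overlapping matches counted once. The capitals mark these letters, or their reverse complements CACGT and CACGC. Each line is 70 bases on the gene's own strand.
Bnip3: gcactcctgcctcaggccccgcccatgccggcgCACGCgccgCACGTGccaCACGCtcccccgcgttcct
P4ha1: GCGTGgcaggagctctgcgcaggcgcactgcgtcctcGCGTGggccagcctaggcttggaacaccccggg
Ddit4: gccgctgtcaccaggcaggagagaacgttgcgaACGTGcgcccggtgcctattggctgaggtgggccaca
Ldha: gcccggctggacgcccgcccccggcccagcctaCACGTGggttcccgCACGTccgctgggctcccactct
Pgk1: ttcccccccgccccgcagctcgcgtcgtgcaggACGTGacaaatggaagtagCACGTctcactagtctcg
Hk2: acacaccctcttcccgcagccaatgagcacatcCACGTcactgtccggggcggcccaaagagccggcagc

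The Bnip3 stretch (chr7:138909587-138909656, minus strand) holds 3 matches. The P4ha1 stretch (chr10:59323133-59323202, plus strand) holds 2, and the Ddit4 stretch (chr10:59951921-59951990, minus strand) holds 1. The Ldha stretch (chr7:46845723-46845792, plus strand) and the Pgk1 stretch (chrX:106186917-106186986, plus strand) hold 2 each, and the Hk2 stretch (chr6:82774470-82774539, minus strand) holds 1. RefSeq windows were matched for 34 of the 38 members, some with several starts, and 31 of the 34 had a match in at least 1 window. Eno2, Gpi1 and Tpi1 had no match. The share per gene was not computed over all genes, and a gene with several windows has more chances of a match. Bhlhe40, Ero1l, Ndrg1 and Plod2 had no entry. Counted by window, 41 of 53 member windows (77.4%) held at least 1 match, against 43.8% of all 32851 windows and 65.1% of the windows of genes with a mean of at least 10 CPM here. The share was 22 of 29 windows for the glycolysis members and 19 of 24 for the hypoxia members. The short letters occur by chance in many promoters, and a match is a description of the sequence, not a binding site. Among the stretches shown, Bnip3 was higher, Ddit4 lower and Pgk1 near equal in the high pigment library, as described below.

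High pigment cells differed little from low pigment cells in the glycolysis members and unevenly in the hypoxia members. The glycolysis members together made up 10128 CPM in low and 9278 CPM in high pigment cells, a ratio of 0.916. The hypoxia members summed to 884 and 1022 CPM, a ratio of 1.16. The most abundant of them weigh heavily in this sum: Higd1a alone went from 204 to 339 CPM and Ero1l from 111 to 182 CPM. The sum is therefore no measure of the hypoxia members as a set. Genes with a mean of at least 10 CPM were counted as measured, and as higher or lower when the high pigment level was at least 25% above or 20% below the low pigment level, by size alone. By this rule 1 of 18 glycolysis members was higher and 1 lower. Of the 15 measured hypoxia members, 3 were higher and 6 lower. Among all 7849 measured genes 10.9% were higher and 23.4% lower, so the glycolysis counts lie below both shares and the hypoxia counts above both. The median log2 ratio was −0.13 over the glycolysis members and −0.17 over the measured hypoxia members, against −0.08 over all measured genes. The TMM scaling of edgeR shifts the median of all genes from −0.08 to 0.04 and turns the shares of all genes into 19.3% higher and 14.0% lower. Under it the glycolysis members had 3 higher and 0 lower, and the hypoxia members 5 higher and 3 lower.

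**Figure D1:**
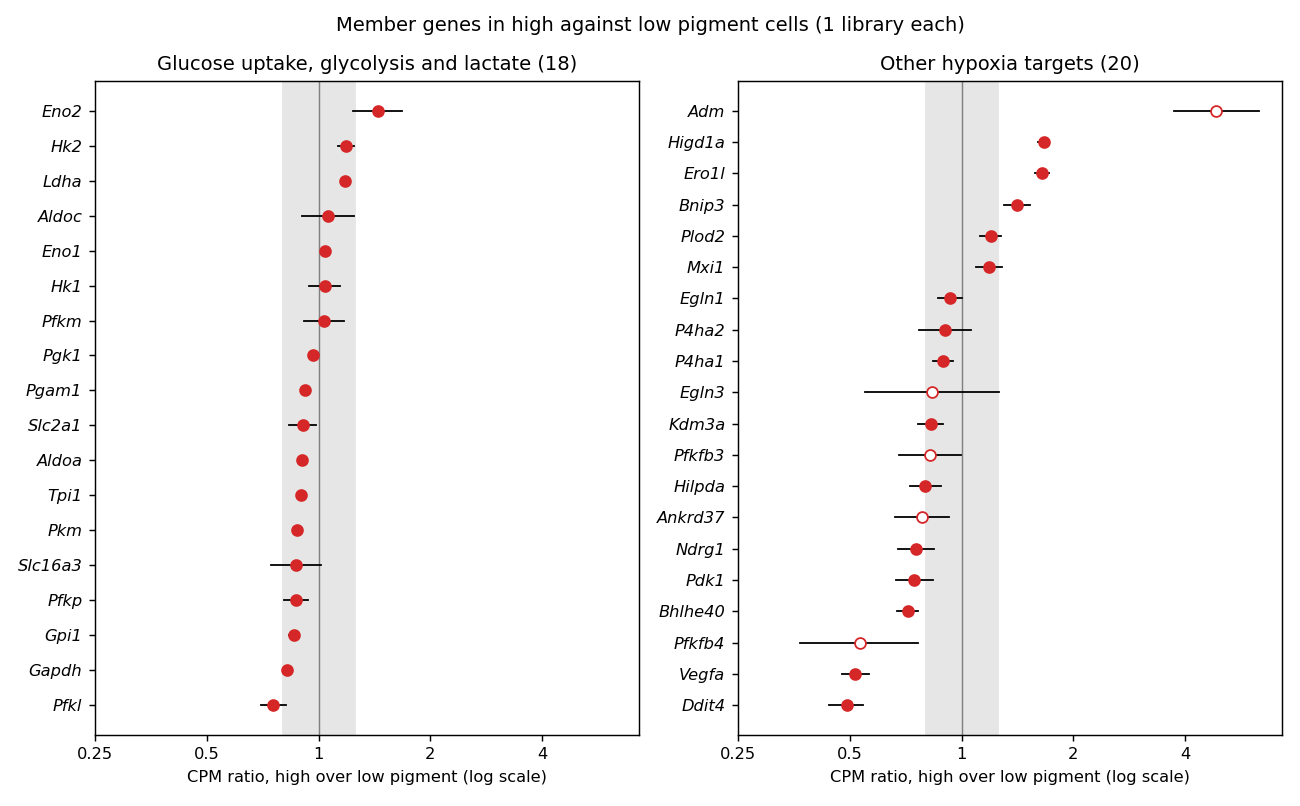
Ratio of CPM in the high over the low pigment library for the 18 glycolysis members (left) and the 20 hypoxia members (right), on a log axis. Points are ratios of 1 library each, bars are exact 95% counting intervals, open points are members with a mean under 10 CPM, and the grey band spans 20% lower to 25% higher. Glycolysis members lie close to 1 between 0.756 (Pfkl) and 1.44 (Eno2), while hypoxia members spread from 0.490 (Ddit4) to 4.84 (Adm).

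The glucose transporter gene Slc2a1 had 37.4 CPM in the low and 33.9 CPM in the high pigment library. Hexokinases trap glucose in the cell as its phosphate. Hk2, the inducible hexokinase (chr6:82725025-82774454, build GRCm38, GENCODE annotation), had 101 CPM in low and 120 CPM in high pigment cells, a ratio of 1.19 (1.13–1.24), and Hk1 had 27.1 and 28.2 CPM. Hk2 thus supplied 78.9% of hexokinase UMIs in the low (77.6–80.1%) and 81.0% in the high pigment library (79.8–82.1%). Gpi1, which converts glucose 6-phosphate to fructose 6-phosphate, had 284 and 244 CPM.

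Phosphofructokinase commits the sugar to glycolysis and has 3 isozyme genes. Pfkl (chr10:77986947-78010083), the liver type isozyme, had 51.1 CPM in low and 38.7 CPM in high pigment cells, a ratio of 0.756 (0.700–0.816), and was the one glycolysis member counted as lower. Pfkp had 47.9 and 41.6 CPM, and Pfkm 16.6 and 17.2 CPM. The Pfkl share of the family's UMIs was 44.2% (42.6–45.8%) in low and 39.6% (37.8–41.5%) in high pigment cells, and the Pfkm share 14.4% and 17.7%. The Pfkl ratio was 0.840 among G1 cells alone, from 577 and 387 UMIs, and thereby not past the limit of 20% lower there. That ratio has no interval, so a difference from the ratio of all cells is not settled.

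The enzymes of the triose steps were the most abundant members. Gapdh, the glyceraldehyde phosphate dehydrogenase often used as a reference gene, led with 3312 CPM in the low and 2722 CPM in the high pigment library, a ratio of 0.822 (0.815–0.830). The genome holds many processed copies of Gapdh, so its count is uncertain to the extent that reads match them. Aldoa (842 and 760 CPM), Tpi1 (811 and 726 CPM), Pgam1 (916 and 843 CPM) and Pkm (1077 and 940 CPM) were each slightly lower in high pigment cells, with ratios from 0.872 to 0.921. Pgk1, the first ATP-forming enzyme of the route, had 1008 and 971 CPM (0.963), and Eno1 had 658 and 685 CPM (1.04). The retrocopy Eno1b was counted separately at 7.86 and 7.11 CPM, and reads that fit both copies make Eno1 uncertain to that extent.

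Minor isozymes of these steps were rare. Eno2 (chr6:124760053-124769673), the neuronal enolase, had 9.28 CPM in low and 13.4 CPM in high pigment cells, a ratio of 1.44 (1.24–1.68), and was the one glycolysis member counted as higher. It supplied 1.39% of the UMIs of Eno1 and Eno2 in the low and 1.92% in the high pigment library. Its ratio was 1.13 among G1 cells, 1.78 among S cells and 1.66 among G2M cells, so the call did not hold in G1. The G1 ratio rests on 131 and 118 UMIs and has no interval, so a difference between phases is not settled. Aldoc had 9.99 and 10.6 CPM, and made up 1.17% and 1.38% of aldolase UMIs.

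At the lactate end, Ldha (chr7:46841475-46855627), which reduces pyruvate to lactate, had 910 CPM in low and 1073 CPM in high pigment cells, a ratio of 1.18 (1.16–1.20). Of the 10 glycolysis members of at least 50 CPM, Ldha, Hk2 and Eno1 thus had the larger share in high pigment cells. None of them was past the limit of 25% higher, and the other 7 had the smaller share. This depends on the scaling: under TMM, Ldha and Hk2 passed that limit, with log2 ratios of 0.36 and 0.37. Pgk1 and Pgam1 turned to 0.07 and 0.002 under it. The lactate exporter gene Slc16a3 had 11.8 and 10.3 CPM.

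Genes that steer glucose use were low in both libraries. Pdk1 (chr2:71873224-71903858), a kinase that inhibits pyruvate dehydrogenase, had 22.9 CPM in low and 17.1 CPM in high pigment cells, a ratio of 0.746 (0.664–0.837). Pfkfb3 and Pfkfb4 make the fructose 2,6-bisphosphate that stimulates phosphofructokinase. Pfkfb3 had 7.89 and 6.48 CPM. Pfkfb4 had 2.99 and 1.60 CPM from 97 and 46 UMIs (0.533, 0.367–0.765), and both are under the 10 CPM minimum.

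The genes of oxygen sensing and feedback differed in both directions. Egln1, the main HIF prolyl hydroxylase, had 45.8 CPM in the low and 42.6 CPM in the high pigment library, and its relative Egln3 had 1.79 and 1.49 CPM. Bhlhe40 (chr6:108660629-108666925), a transcriptional repressor, had 72.7 and 52.1 CPM, a ratio of 0.716 (0.671–0.765). The histone demethylase gene Kdm3a had 47.2 and 39.0 CPM, and Mxi1, a MYC antagonist, had 36.7 and 43.5 CPM, neither past the limits. Ankrd37 had 10.8 CPM in low and 8.46 CPM in high pigment cells (0.782, 0.661–0.923), with a mean under the minimum.

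Among the collagen and endoplasmic reticulum enzymes, Ero1l stood apart. Ero1l (chr14:45283087-45318771), the oxidase that drives disulfide formation in the endoplasmic reticulum, had 111 CPM in low and 182 CPM in high pigment cells, a ratio of 1.65 (1.58–1.72). The collagen lysyl hydroxylase gene Plod2 had 56.8 and 68.0 CPM (1.20). The prolyl 4-hydroxylase subunit genes P4ha1 (69.1 and 61.5 CPM) and P4ha2 (10.8 and 9.78 CPM) were slightly lower, and P4ha2 kept about the same share of the family's UMIs (13.5% and 13.7%).

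Both mitochondrial members had the larger share in high pigment cells. Higd1a (chr9:121848563-121858362), a protein of the inner mitochondrial membrane that binds respiratory complexes, had 204 CPM in the low and 339 CPM in the high pigment library, a ratio of 1.66 (1.61–1.72). Annotated antisense transcription overlaps its first exon, and the use of strand in counting is not stated in the sources used here. Bnip3 (chr7:138890836-138909519), a receptor for the removal of mitochondria by autophagy, had 33.3 and 47.1 CPM, a ratio of 1.41 (1.31–1.53). Among G2M cells the Bnip3 ratio was 1.12, not past the limit, a value given without an interval. Nuclear-encoded oxidative phosphorylation genes, listed for context, had 7 of 32 members higher (21.9%) and 3 lower (9.38%), against 10.9% and 23.4% of all measured genes.

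The secreted factors went opposite ways. Vegfa (chr17:46016993-46032369), the vessel growth factor, had 55.3 CPM in low and 28.6 CPM in high pigment cells, a ratio of 0.518 (0.476–0.563). Adm (chr7:110627661-110629820), the precursor of the vasodilator adrenomedullin, had 2.22 CPM from 72 UMIs in low and 10.7 CPM from 310 UMIs in high pigment cells, a ratio of 4.84 (3.74–6.35). The mean of Adm lies under the 10 CPM minimum, so it is in no count above.

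All 3 members of growth, lipid and stress control were lower in high pigment cells, against 23.4% of all measured genes. Ddit4 (chr10:59949669-59951834), an inhibitor of mTORC1 that many stresses induce, had 36.0 CPM in low and 17.6 CPM in high pigment cells, a ratio of 0.490 (0.441–0.544). Ndrg1, a stress-responsive gene of differentiation, had 24.9 and 18.8 CPM (0.753, 0.674–0.840). Hilpda, which blocks lipid droplet breakdown, had 32.1 and 25.7 CPM (0.800, 0.727–0.879), just past the limit. The calls of Pdk1, Ndrg1 and Hilpda ended under TMM scaling, with log2 ratios of −0.30, −0.29 and −0.20.

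Immediate early genes, which respond within minutes to stimulation or handling, also differed between the libraries. All 11 measured genes of this kind were lower in high pigment cells, against 23.4% of all measured genes, and the list summed to 2009 CPM in the low and 375 CPM in the high pigment library. Their part in the lower Vegfa, Ddit4 and Bhlhe40 was not tested. Of the 14 ATF4 target genes, a list of the amino acid stress response, 1 was higher (7.14%) and 4 lower (28.6%), near the 10.9% and 23.4% of all measured genes.

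Genes of the HIF machinery itself were read from a list of their own. Of 18 measured genes 2 were higher (11.1%) and 5 lower (27.8%), near the 10.9% and 23.4% of all measured genes, and the median log2 ratio was −0.05. Hif1a, the oxygen-regulated subunit, had 112 CPM in low and 131 CPM in high pigment cells (1.17, 1.12–1.23). Epas1, which encodes HIF-2 alpha, had 13.3 and 7.83 CPM, a ratio of 0.587 (0.497–0.691). The partner gene Arnt had 18.4 and 17.6 CPM, and Vhl 19.1 and 17.2 CPM. The coactivator gene Crebbp (1.44) and the elongin B gene Elob (1.31) had the larger ratios. Rack1 (0.741), the ubiquitin ligase gene Siah2 (0.745) and Os9 (0.749) had the smaller ones. HIF activity is set mainly by the stability of the protein, which RNA counts do not measure.

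Further genes of the same pathways were read from lists that hold no member. Of 19 other measured glucose and pyruvate genes, 0 were higher and 7 lower (36.8%) by size, without a test, against 10.9% and 23.4% of all measured genes. Slc2a3, a further glucose transporter gene, had 13.8 and 6.83 CPM (0.496), and Eno3, Pgm2 and the pyruvate dehydrogenase subunit gene Pdha1 had ratios of 0.691, 0.706 and 0.725. Of 20 other measured hypoxia targets, 4 were higher (20%) and 9 lower (45%), against the same 10.9% and 23.4%, and the median log2 ratio was −0.21. Pgf, placental growth factor, had 5.18 CPM in low and 16.7 CPM in high pigment cells (3.22, 2.70–3.86). Fam162a, a mitochondrial protein, had 125 and 236 CPM (1.89, 1.82–1.97), followed by the creatine transporter gene Slc6a8 (1.52) and the glycogen branching enzyme gene Gbe1 (1.32). Fos, also an immediate early gene, had the smallest ratio at 0.159, before Pnrc1 (0.380), Wsb1 (0.407) and Errfi1 (0.457).

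The authors assigned each cell to a cell cycle phase, and the phases were filled differently. G1 held 39.4% of low and 33.1% of high pigment cells, and G2M held 23.5% and 44.4%. Within the phases the glycolysis sum kept a ratio of 0.939 in G1, 0.906 in S and 0.908 in G2M. The hypoxia sum went from 926 to 1157 CPM in G1, from 832 to 901 CPM in S and from 905 to 990 CPM in G2M. Higd1a alone, which is part of this sum, went from 201 to 378, from 196 to 289 and from 218 to 336 CPM. Vegfa ratios were 0.556, 0.492 and 0.503, and Ddit4 ratios 0.586, 0.523 and 0.420, so both were lower in every phase. Higd1a (1.88, 1.48 and 1.54) and Ero1l (1.80, 1.56 and 1.60) were higher in every phase. Adm ratios were 4.36, 3.08 and 7.22.

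Several members varied with the phase inside a library. Hk2 had 130 CPM in G1, 84.5 CPM in S and 89.7 CPM in G2M cells of the low pigment library, and 161, 87.5 and 109 CPM in high pigment cells. The high value in G1 was thus seen in both libraries. Bnip3 was lowest in S in both, with 24.9 CPM in low and 31.9 CPM in high pigment cells. It had 39.2 and 65.9 CPM in G1, and 37.7 and 42.2 CPM in G2M, so G1 and G2M were near equal in low pigment cells. Hilpda went from 47.1 CPM in G1 to 19.9 CPM in G2M in low pigment cells and from 32.2 to 21.9 CPM in high pigment cells. Its ratio of high over low pigment accordingly ran from 0.684 in G1 to 1.10 in G2M. Ankrd37 ran the other way, with 10.1 and 12.1 CPM in G1 (1.20) but 12.6 and 6.94 CPM in G2M (0.552). No intervals are given for ratios within a phase, so whether either gene changes direction beyond counting error is not settled. Ldha and Gapdh moved little between phases.

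**Figure D2:**
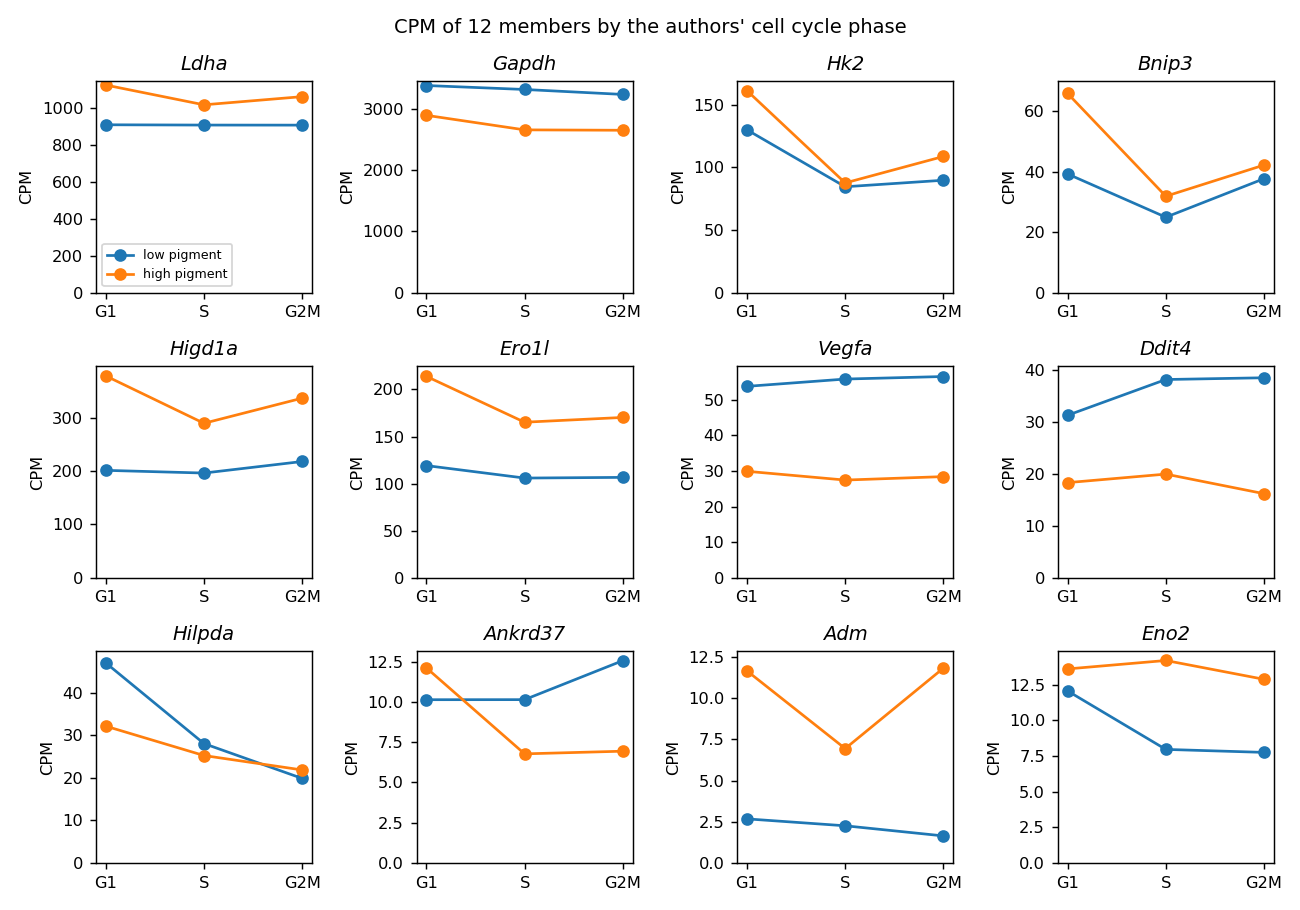
CPM of 12 members (vertical axes, each from 0) in the G1, S and G2M cells of the low pigment (blue) and high pigment (orange) library, 1 pooled value per point without replicates. Hk2 is highest in G1 and Bnip3 lowest in S in both libraries. Vegfa and Ddit4 are lower in high pigment cells in each phase, and the lines of Hilpda and Ankrd37 cross.

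The authors' 4 clusters largely follow the sort, since clusters 1 and 2 held 1023 and 822 of the 1900 low pigment cells and clusters 0 and 3 held 1520 and 523 of the 2136 high pigment cells. The clusters were made from these genes too, so levels by cluster are a description. The 19 low pigment cells placed in cluster 3 had a hypoxia sum of 1962 CPM, with Ero1l at 502 and Bnip3 at 192 CPM, against 843 to 890 CPM for the sum in the other low pigment cells by cluster. Of these 19 cells 3 had 4 or more Bnip3 UMIs after thinning to equal depth, a set described further on. Without those 3 the hypoxia sum of the cluster was 1012 CPM, with Ero1l at 272 and Bnip3 at 27.2 CPM. Among high pigment cells the hypoxia sum ran from 991 CPM in cluster 0 to 1443 CPM in the 45 cells of cluster 2. Without cells of 4 or more Bnip3 UMIs it was 943 CPM in cluster 0 and 956 CPM in cluster 3. In the small clusters 1 and 2 it was then 1058 and 1271 CPM. Ddit4 stood at 74.6 CPM in those 45 cells and at 15.3 to 16.8 CPM in the other high pigment cells. The glycolysis sum ran from 8969 to 10244.5 CPM over low pigment clusters 0, 1 and 2, and was 13442 CPM in the 19 cells of cluster 3. That value includes the 3 cells of 4 or more Bnip3 UMIs, and no value without them is given. Over the high pigment clusters the glycolysis sum ran from 8975 to 10694 CPM.

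Cell-to-cell spread was examined after thinning every cell at random to 7500 UMIs, so that depth did not differ between cells. A gene whose cells differ by counting noise alone has a variance equal to its mean. The variance over the mean was 2.53 for Bnip3 in the low and 3.09 in the high pigment library, 2.13 and 4.04 for Ero1l, and 1.81 and 3.04 for Higd1a. Over all genes of at least 0.1 UMIs per cell the median was 1.05 in both libraries, and 90% of genes lay under 1.22 and 1.24. Hk2 had 1.51 and 2.04, and Vegfa had 1.12 and 1.08. Low means pull this measure towards 1, so it ranks genes of similar level only. The highest counts in a single thinned cell were 31 and 39 UMIs for Ero1l, 18 and 36 for Higd1a, and 11 and 16 for Bnip3.

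Within a library, cells with more glycolysis UMIs tended to have more hypoxia UMIs. The thinned glycolysis sum had a median of 73 UMIs per cell in the low and 66 in the high pigment library, and the hypoxia sum a median of 6 in both. Spearman's correlation between both sums was 0.227 over 1900 low pigment cells and 0.372 over 2136 high pigment cells. Within G1, S and G2M it was 0.239, 0.158 and 0.295 in low, and 0.411, 0.270 and 0.383 in high pigment cells. These cells share a library and a culture, so the values are descriptions and carry no p. Spearman's correlation of either sum with the summed melanin genes lay between −0.07 and 0.04. With the summed immediate early genes it was positive in both libraries, at 0.114 in low and 0.130 in high pigment cells for the glycolysis sum and at 0.058 and 0.121 for the hypoxia sum. With the mitochondrially encoded genes it ran from −0.16 to −0.07, with the ribosomal protein genes from −0.18 to −0.08, and with the cell's total UMIs before thinning from −0.10 to 0.03.

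Single pairs of members were set against pairs of all genes. Among 15 members of at least 50 CPM there are 105 pairs, and 50 of them exceeded the 99th percentile of all 4640581 pairs of such genes in both libraries (correlation of 0.0792 in low and 0.0880 in high pigment cells). Of the 45 pairs of glycolysis members 35 did so, with a median correlation of 0.166 in low and 0.216 in high pigment cells. The strongest were Pgk1 with Ldha (0.329 and 0.355), Gapdh with Pgk1 (0.307 and 0.381) and Tpi1 with Ldha (0.287 and 0.336). Abundant genes reach larger values since counting noise is smaller in them, and the comparison with all pairs is not matched for level. Of the 50 pairs of a glycolysis with a hypoxia member 13 passed in both libraries, each of them with Higd1a, Ero1l or Plod2, and of the 10 pairs of hypoxia members 2.

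Among the hypoxia members in these pairs, Higd1a had the largest correlation with each glycolytic enzyme except Hk2. It was also the most abundant of these hypoxia members, and the comparison is not matched for level. Bnip3, at a lower level, was not in the pairs. Its correlation with the glycolysis sum was 0.169 in low and 0.267 in high pigment cells, against 0.261 and 0.308 for Higd1a. The correlation of Higd1a was 0.205 and 0.224 with Pgk1, 0.189 and 0.217 with Tpi1, and 0.162 and 0.291 with Ldha. Ero1l with Ldha had 0.136 and 0.153. Hk2 behaved otherwise: its correlation with Pgk1 was −0.03 and −0.02, and with Aldoa −0.01 and −0.02. Bhlhe40 was likewise near 0 with Pgk1 (−0.04 and 0.00) and Higd1a (0.00 and −0.03). The differences of Higd1a, Hk2 and Bhlhe40 from the other members were not tested.

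**Figure D3:**
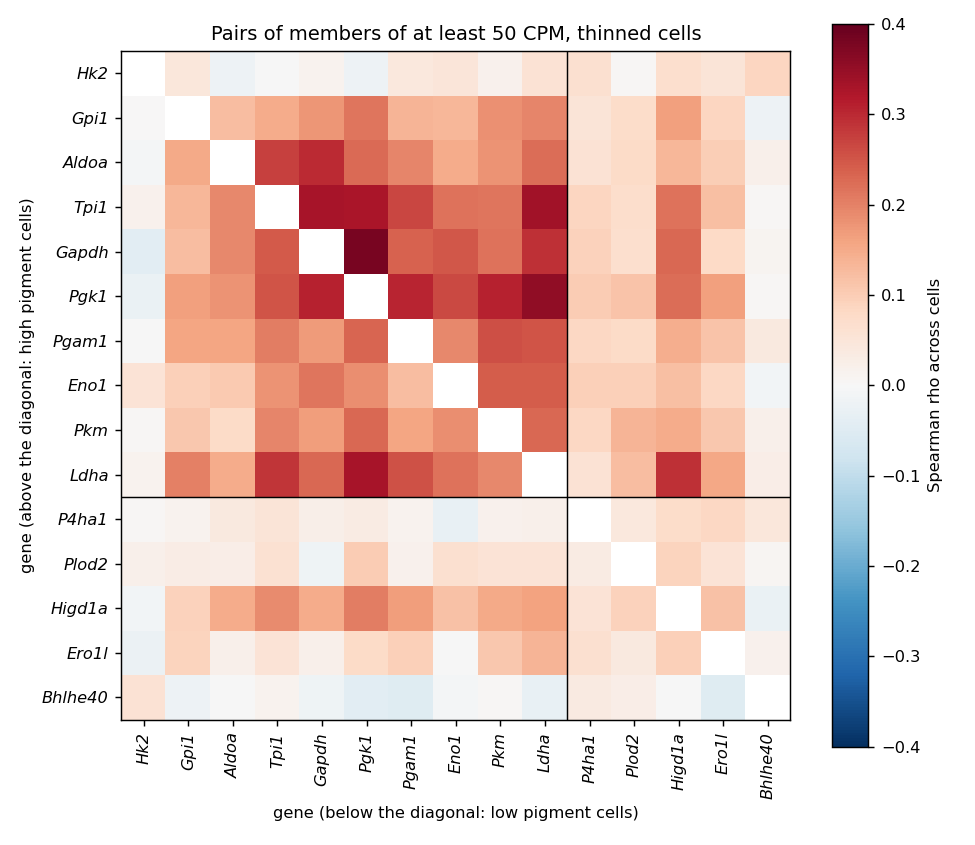
Spearman's correlation across thinned cells for each pair of the 15 members of at least 50 CPM, with low pigment cells below and high pigment cells above the diagonal (colour scale from −0.4 to 0.4). Lines part the glycolysis members (first) from the hypoxia members. The block from Gpi1 to Ldha without Hk2 is red in both libraries, the Higd1a row and column are paler red, and those of Hk2 and Bhlhe40 are near white.

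Genes outside the list were ranked by the smaller of their correlations in the 2 libraries, over 3032 genes of at least 50 CPM. Those most like the glycolysis sum were Mif (0.267 in low and 0.255 in high pigment cells), Fam162a (0.225 and 0.264), Vim, Sparc, Npm1, Ppia, Hist1h2bc and Bsg. Those most like the hypoxia sum were Fam162a (0.168 and 0.307), the galectin-3 gene Lgals3 (0.150 and 0.160), Trp53inp1, Bsg, Kctd12, the cell cycle inhibitor gene Cdkn1a, Sparc and Rps27l. The median over all compared genes lay between 0.00 and 0.01. Fam162a, Bsg and Sparc stand in both rankings.

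A small set of cells carried much of the Bnip3 RNA. In thinned cells, 1570 of 1900 low and 1674 of 2136 high pigment cells had no Bnip3 UMI, while 16 low pigment cells (0.842%, 0.482–1.36%) and 34 high pigment cells (1.59%, 1.10–2.22%) had 4 or more. The intervals of both shares overlap, which does not show that the shares are equal, and their difference was not tested. The limit of 4 was chosen after seeing the data and cuts a range, not a cell type: 15 low and 13 high pigment cells had exactly 3 UMIs, and 4 and 11 had exactly 4. Without thinning, 53 low (2.79%) and 74 high pigment cells (3.46%) had 4 or more. The 16 cells held 21.8% of the thinned Bnip3 UMIs of the low pigment library and the 34 cells 30.2% of those of the high pigment library.

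These cells were also rich in nearly all other members of at least 50 CPM, which the limit did not use. Rarer members rest on few UMIs in these cells and were not all higher, for example Pfkfb3 and Egln3. Of the 15 members of at least 50 CPM, 14 were at least 1.5-fold higher than in cells without a Bnip3 UMI in the low pigment library and 15 in the high pigment library. Of all 3047 genes of at least 50 CPM, 16.1% and 11% reached this. Bhlhe40 was the exception in the low pigment library, at 3 UMIs with a ratio of 0.337 (0.0694–0.989), and had 1.89 (1.23–2.80) in the other. Ero1l had 102 CPM in cells without and 800 CPM in cells rich in Bnip3 in the low pigment library, a ratio of 7.84 (6.30–9.65), and 143 and 1561 CPM in the high pigment library (10.9, 9.79–12.2). Higd1a went from 185 to 1192 CPM (6.43, 5.39–7.61) and from 264 to 1643 CPM (6.22, 5.61–6.89). In the plot of both libraries these ratios exceed those of all glycolysis members shown, except that Pfkl lies above Higd1a in the high pigment library.

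Among the glycolysis members, Pfkl had the largest ratio of those plotted, at 5.11 (3.42–7.38) in low and 6.60 (4.92–8.69) in high pigment cells. Ldha had 3.32 and 2.71, Pgk1 2.95 and 3.39, Hk2 1.73 and 2.66, and Gapdh 1.56 and 2.08. Pdk1 had 11.2 (7.21–16.7) from 27 UMIs in low and 5.33 (3.23–8.38) from 21 UMIs in high pigment cells. Egln1, the feedback hydroxylase, had 6.74 and 4.22. Ankrd37 had 5.26 (1.89–11.8) from 6 UMIs and 19.1 (11.9–30.0) from 28 UMIs. Vegfa, lower in high pigment cells as a whole, was higher in the Bnip3-rich cells of each library, with ratios of 2.09 (1.11–3.61) and 2.45 (1.41–3.98). Ndrg1 had 1.00 (0.206–2.97) from 3 UMIs in low but 4.14 (2.48–6.54) from 20 UMIs in high pigment cells.

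Genes outside the list differed in their behaviour in these cells. Fam162a had ratios of 7.47 and 6.62, and Bnip3l, a relative of Bnip3, had 5.00 and 4.99. Hif1a RNA had 0.751 (0.359–1.39) and 1.02 (0.715–1.42), intervals that include 1. Mitf had 0.951 (0.620–1.40) in low and 0.574 (0.453–0.718) in high pigment cells. The Bnip3-rich cells were placed in G1 in 68.8% of cases in the low and 61.8% in the high pigment library, against 39.4% and 33.1% of all cells. Their median depth before thinning was 13490 and 10572 UMIs, below the medians of their libraries, and their median mitochondrial share was 5.51% and 4.01%. Scrublet marked 0 of the 50 cells as doublets. In the low pigment library they made up 3 of the 19 cells of cluster 3 (15.8%, 3.38–39.6%), 8 of the 1023 cells of cluster 1 (0.782%, 0.338–1.54%) and 5 of the 822 cells of cluster 2 (0.608%, 0.198–1.41%). In the high pigment library they made up 15 of the 523 cells of cluster 3 (2.87%, 1.61–4.69%) and 17 of the 1520 cells of cluster 0 (1.12%, 0.653–1.78%). Of the smaller groups, clusters 1 and 2 of the high pigment library held 1 such cell each, and cluster 0 of the low pigment library held 0 of 36. The share was thus largest in cluster 3 in both libraries, with intervals that overlap those of some other clusters, and the clusters were made from these genes too. Whether place in the culture, cell cycle or another cause sets them apart was not tested.

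**Figure D4:**
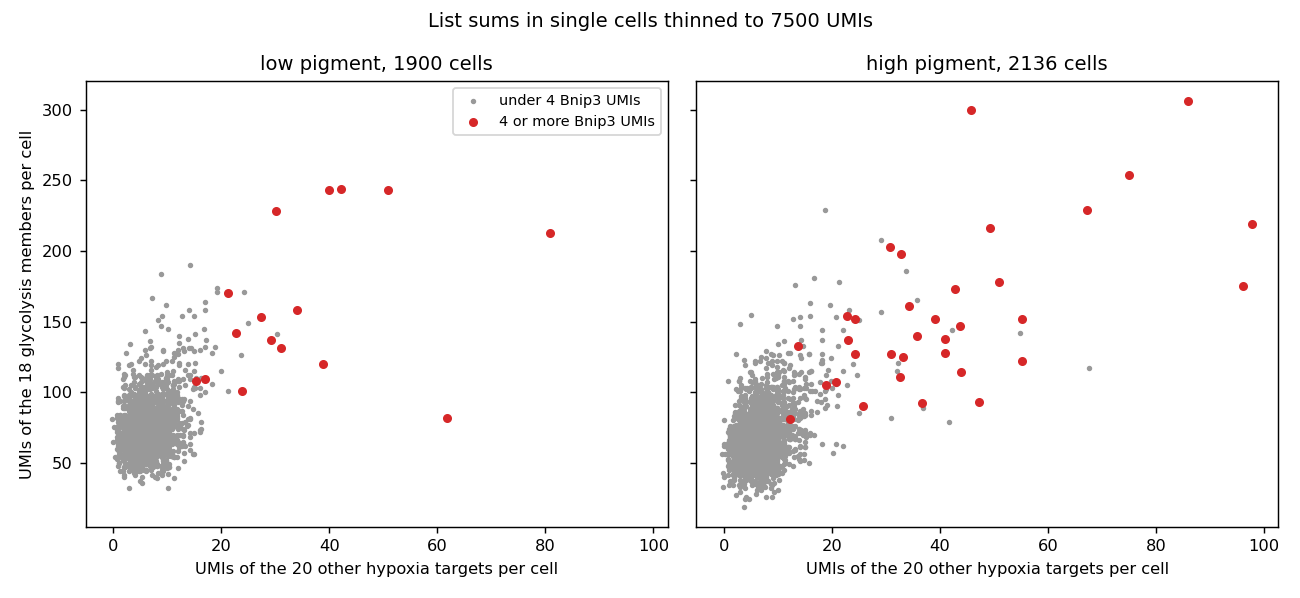
UMIs of the 18 glycolysis members (vertical axis) against UMIs of the 20 hypoxia members (horizontal axis, shifted at random by up to 0.3 UMIs so that points do not hide each other) in each cell thinned to 7500 UMIs. Cells with 4 or more Bnip3 UMIs are red. Their hypoxia sums, which include Bnip3, have medians of 30.5 in the low and 38 in the high pigment library, against 6 in the other cells, and their glycolysis sums 147.5 and 143.5, against 73 and 65.

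**Figure D5:**
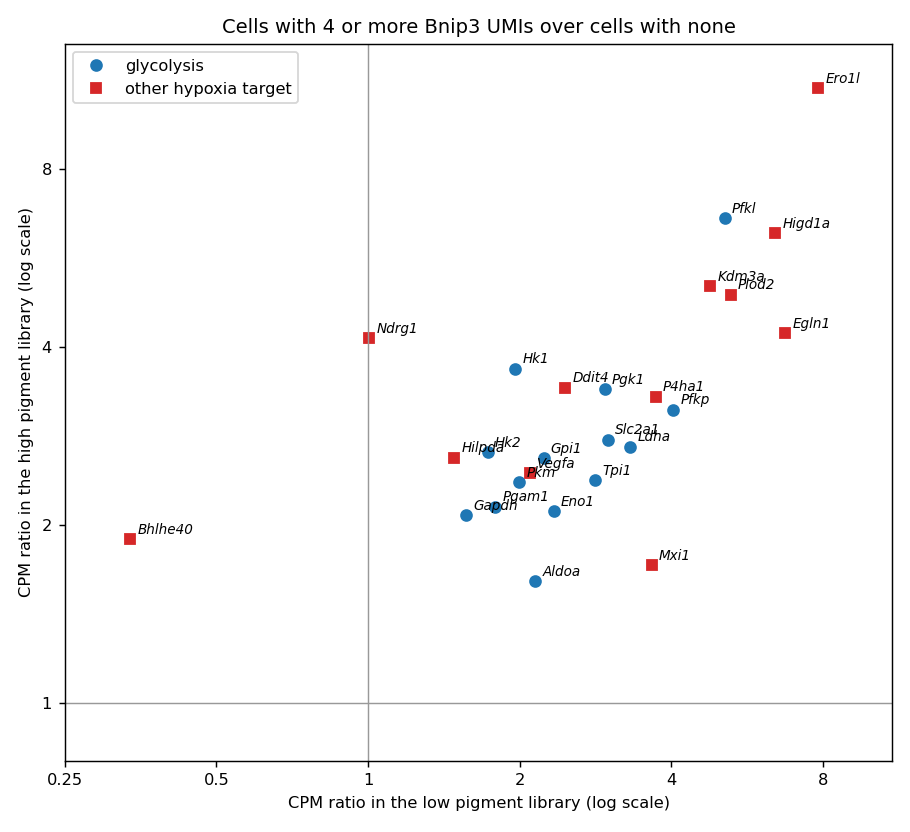
Ratio of CPM in cells with 4 or more Bnip3 UMIs over cells with none, in the low (horizontal) and high (vertical) pigment library on log axes, for the 26 members other than Bnip3 with a mean of at least 20 CPM. Circles are glycolysis members and squares hypoxia members. Ero1l lies farthest to the upper right, Aldoa has the smallest ratio of the high pigment library at 1.61, and Bhlhe40 is the one point left of 1 in the low pigment library.

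The library ratios depended in part on these few cells. Without them the log2 ratio of high over low pigment was 0.33 for Bnip3 in place of 0.50, and 0.63 for Ero1l in place of 0.72. Higd1a kept 0.69 of 0.73, Vegfa −0.97 of −0.95 and Ddit4 −1.06 of −1.03, so these ratios were seen in the remaining cells as well. Ankrd37 moved from −0.36 to −0.64. The correlation between both sums was 0.208 in low and 0.342 in high pigment cells without them, so the co-variation was seen in the other cells too.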

How the data were processed

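The members and the pathway and marker lists were chosen with earlier results of these data known. Counts are the UMI counts per gene and barcode that the authors deposited. The submitters' processing notes name Cell Ranger 6.1.2 and build mm10, and the matrix aggregates both libraries. The sources used here do not state whether aggregation equalised depth, nor how reads matching several genes or either strand were treated. The authors also deposited a cell table with each cell's sort, phase, cluster, UMI count and percent of mitochondrial UMIs (median 5.62% in low and 5.07% in high pigment cells). The matrix held 5818 barcodes, and the 4036 cells of the table were used. Of the repeated symbol Aldoa, the entry with more UMIs was kept.

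Counts were summed per library and scaled to CPM. Each ratio has an exact conditional binomial 95% interval and each share of UMIs or cells an exact Clopper-Pearson 95% interval. These leave out differences between cultures, sorts, libraries and, for ratios, single cells. A count of 3 UMIs equals 0.0925 CPM in the low and 0.104 CPM in the high pigment library. No test between groups was possible with 1 library each. All 38 members are named. Of each pathway list, up to 4 genes of largest and 4 of smallest ratio past the limits of 25% higher or 20% lower are named, with Hif1a, Epas1, Arnt and Vhl, and the 8 genes most like each sum. The genes outside these lists named for Bnip3-rich cells were chosen after their values were seen. Cells were thinned without replacement to 7500 UMIs, under which no cell lay. Doublets were marked with Scrublet in scanpy 1.11.5 at an expected rate of 0.06 (18 low and 15 high pigment cells) and kept. edgeR 4.0.16 gave only the TMM factors. Scripts were tested on simulated data. Gene positions are from GENCODE on build GRCm38, promoters from RefSeq on GRCm38.p6, which is mm10.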

Additional observations from a re-analysis of the deposited data

How the results depend on the processing

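With 1 library per fraction no replicate could be left out. No paired analysis was possible because each fraction has 1 library. Counts and medians were recomputed under other scalings, filters, cell sets and weightings. TMM scaling gave a glycolysis median log2 ratio of −0.0097 with 3 higher and 0 lower, and a hypoxia median of −0.046 with 5 higher and 3 lower. Setting the median gene to a ratio of 1 gave 2 glycolysis and 5 hypoxia members higher, with 15.8% of all genes higher and 17.3% lower. A minimum of 50 CPM left 0 glycolysis members higher and 0 lower, and turned the hypoxia median to 0.26 with 1 lower, over 10 and 5 members, where 12.1% of all genes were higher and 13.3% lower. G1 cells alone had 0 glycolysis members higher and 0 lower, against 11.8% and 25.9% of all genes, and S cells 2 higher, against 13.6%. The log2 ratio of Ankrd37 turned to 0.26 in G1 and that of Hilpda to 0.14 in G2M, values given without intervals. Spearman's correlation between both sums in low pigment cells was 0.289 without thinning, 0.158 in S, 0.295 in G2M and 0.178 without the most abundant member of each list. In high pigment cells it was 0.411 in G1, 0.270 in S and 0.323 without the most abundant members. Of the other values of counts, medians and correlations, 90 stayed within 1.5 times or within their spread. For single members and isozyme shares, 366 values stayed inside the reported counting interval, 112 moved out of it without turning a called direction, and the 2 named above turned. The counts in Bnip3-rich cells ran from 12 to 14 of 15 in low and from 14 to 15 in high pigment cells with limits of 3 or 5 UMIs, another random thinning, no marked doublets or G1 cells alone. Leaving out cells rich in Bnip3 and these checks were added after seeing the data. Depth limits the members under 10 CPM, such as Egln3 with 58 and 43 UMIs.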
